A study of Mus musculus with 8 samples.

Results

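Transcripts of 28 genes of cholesterol and fatty acid synthesis were followed in 8 whole mouse embryos at embryonic day 9.5. The genes were taken by symbol from a fixed set that runs through the enzymes from mevalonate to cholesterol, the sterol-sensing machinery, sterol transport and fatty acid synthesis. All 28 were found among the 41709 symbols of the deposited table, and all 28 were among the 13596 genes that reached 1 TPM in at least 4 embryos. TPM divides a read number by gene length and scales it to the library, so levels can be compared between genes. The embryos came from litters of parents heterozygous for K399A, an amino acid substitution in Smoothened (Smo). The 4 controls carried only wild-type Smo (Smo+/+, WT) and the 4 mutants were homozygous (SmoK399A/K399A). The substitution sits in every cell of the mutants, no other allele or agent is named, and the labels do not tell which embryo shared a litter. The sources used here give no strain. The labels call each library a replicate from its own embryo.

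Cholesterol is built from acetyl-CoA through mevalonate, isoprenoid units, squalene and lanosterol. When membranes hold little sterol, SCAP carries the SREBP transcription factors to the Golgi for cleavage, and the released factors switch on most genes of the pathway together. When sterol is plentiful, INSIG proteins hold SCAP back in the endoplasmic reticulum. The pathway meets Hedgehog signalling because sterols bind Smoothened and cholesterol is attached to Hedgehog ligands, and defects of late cholesterol synthesis such as loss of DHCR7 cause malformations that overlap with those of weak Hedgehog signalling.

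Promoter windows are shown because SREBP acts at promoters beside the factors NF-Y and Sp1. Any part of these factors in the differences between embryos was not tested. RefSeq sequence of build GRCm38.p6 was matched for 21 of the 28 genes, 1 window of 250 bases before the start for each. Both strands were searched for TCACNCCAC (a sterol regulatory element, SRE), CCAAT (the NF-Y box), GGGCGG (the Sp1 box) and CACGTG (an E-box), and these 4 motifs do not contain one another. Only the Hmgcs1 window, chr13:119690101-119690350 on the plus strand, held the SRE letters, 137 to 129 bases before the start. The windows of Insig1 (chr5:28071162-28071362, plus strand, without the bases that GENCODE places inside the gene) and Scap (chr9:110333038-110333287, plus strand) were added after the values were seen. Insig1 had the widest spread among mutants, and the Scap window held none of the 4 motifs. Capitals mark every motif match, on either strand.
Hmgcs1: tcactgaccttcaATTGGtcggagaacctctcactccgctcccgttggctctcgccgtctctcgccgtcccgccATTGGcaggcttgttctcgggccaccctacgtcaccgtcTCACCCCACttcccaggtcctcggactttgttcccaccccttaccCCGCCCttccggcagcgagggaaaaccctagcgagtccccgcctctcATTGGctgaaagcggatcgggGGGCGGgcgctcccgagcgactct
Insig1: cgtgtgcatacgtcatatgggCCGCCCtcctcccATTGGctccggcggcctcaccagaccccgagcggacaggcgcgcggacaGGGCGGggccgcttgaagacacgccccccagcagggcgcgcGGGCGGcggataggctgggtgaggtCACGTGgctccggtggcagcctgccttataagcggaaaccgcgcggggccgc
Scap: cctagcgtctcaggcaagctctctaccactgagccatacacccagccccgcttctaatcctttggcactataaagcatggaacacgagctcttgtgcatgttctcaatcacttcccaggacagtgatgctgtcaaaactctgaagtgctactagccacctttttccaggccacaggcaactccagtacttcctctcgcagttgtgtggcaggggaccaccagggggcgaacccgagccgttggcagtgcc

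CCAAT lay in 17 of the 21 windows, against 35.6% of 13464 windows of the genes tested and 33.9% of all 32851 windows of this length. GGGCGG also lay in 17 of the 21 windows, against 58.2% of the windows of tested genes and 32.7% of all windows. CACGTG lay in 3 (Hsd17b7, Sc5d and Insig1), against 8.30% and 6.02%. TCACNCCAC lay in 1, against 1.00% and 1.05%. Each of the 21 genes gave only the window nearest its GENCODE start. The shares count every window, and a gene could have several. The 4 genes with a window and no CCAAT were Acat2, Dhcr7, Scap and Fads2. Of these, Acat2, Dhcr7 and Fads2 were lowest in WT 1 and mutant 3 within each genotype. Ebp, whose levels hardly differed between embryos, held both CCAAT and GGGCGG. The hand-picked Insig1 and Scap windows thus do not stand for the set, and whether motifs go with the spread between embryos was not tested. A match is a match of letters and was not tested for binding. The search says nothing of sites outside these windows, or of sterol regulatory elements spelled otherwise than TCACNCCAC.

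The libraries rested on 56.8 to 58.1 M reads each, counted over the 22462 genes whose TPM steps gave whole reads. Among the genes followed here, 27 of 28 gave whole reads, from 538 to 1086 per library for Tm7sf2 to 64141 to 101456 for Scd2. Smo itself was at 132 to 147 TPM in WT and 126 to 156 TPM in mutants, which says nothing of a substitution in the protein. Libraries of mutants 3 and 4 stood apart from the other 6. Their 15 small nucleolar RNA host genes named Snhg summed to 270 and 261 TPM, against 526 to 652 TPM in the others, and mt-Nd6 was at 4.06 and 10.8 TPM, against 27.9 to 36.2 TPM. Mutant 3 was below all 4 WT embryos in 54.0% of the genes tested, and also had the lowest Gli1, at 10.7 TPM.

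All genes followed were well expressed, and their levels per length spanned the set widely. Scd2, the stearoyl-CoA desaturase of the developing brain and other embryonic tissue, stood first at a mean of 776 TPM over the 8 embryos, and its lowest embryo (625 TPM) was above every value of every other gene in the set. Hmgcs1, the first committed step towards mevalonate, followed at 274 TPM, then Acat2 at 244 TPM and Fads2 at 229 TPM. The embryos of these 3 genes overlapped, so their order is within the spread. Lowest were Hsd17b7 at 20.3 TPM, the cholesterol transporter Npc1 at 11.8 TPM and the sterol reductase Tm7sf2 at 10.4 TPM, and the embryos of the last 2 overlapped.

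**Figure D1:**
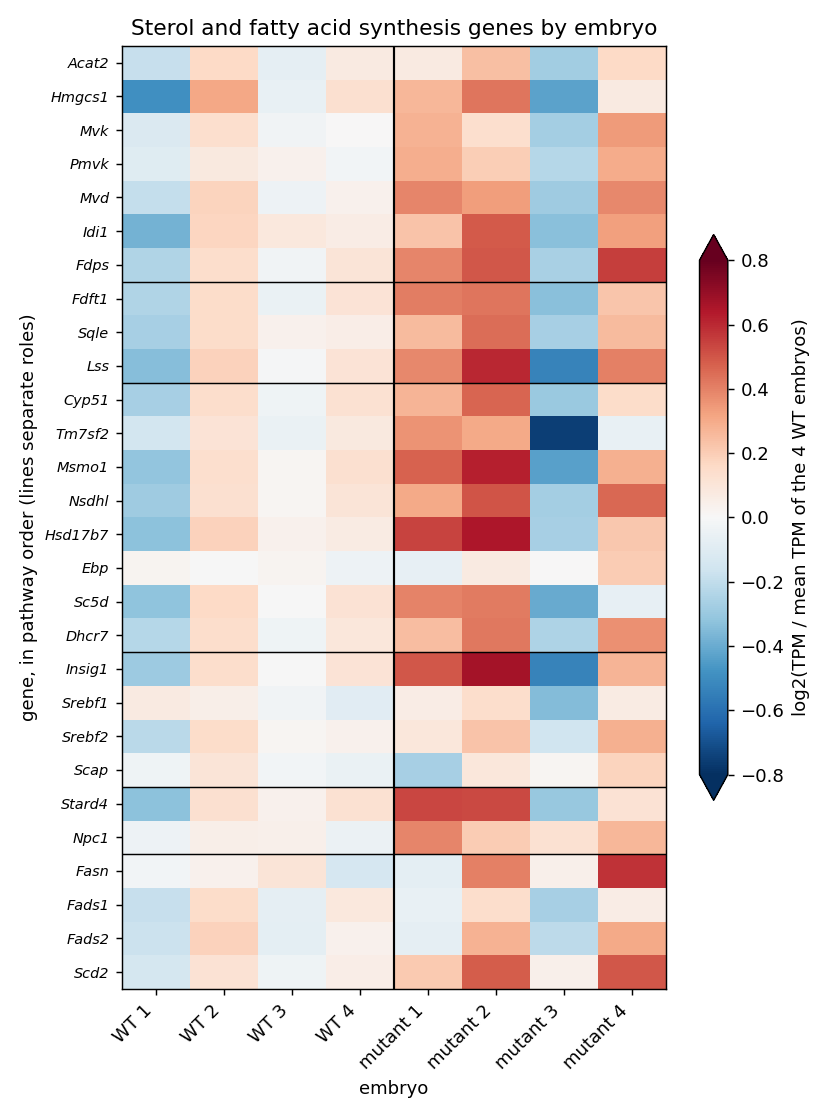
Rows are the 28 genes in pathway order, columns the 8 embryos, and colour the log2 ratio of TPM to the mean TPM of the 4 WT embryos (red higher, blue lower). WT 1 and mutant 3 are blue in most rows, mutants 1, 2 and 4 are mostly red, and Ebp and Scap are close to white in most columns.

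The clearest pattern was shared by embryos rather than by genotypes: nearly all genes were low in the same embryos and high in the same embryos. WT 1 was the lowest WT embryo for 23 of the 28 genes (32.2% of all genes tested), and WT 2 was the highest for 25 (41.0%). Mutant 3 was the lowest mutant for 25 genes (40.6%), and mutant 2 was the highest for 15 (37.3%), with mutant 4 highest for 9 (17.2%) and mutant 1 for 4 (40.2%). WT 1 and mutant 3 were the lowest 2 of all 8 embryos for 22 of the 28 genes, against 5.13% of all genes tested, a count chosen after the values were seen. Mutant 3 was below all 4 WT embryos for 16 of 28 genes, close to its 54.0% over all genes. These counts use TPM as deposited. Median-ratio scaling factors of the libraries ran from 0.917 to 1.057, and the counts were not repeated after scaling. The 28 genes together made up 0.256%, 0.329%, 0.293% and 0.308% of TPM in the WT embryos 1 to 4, and for mutants 1 to 4 the shares were 0.340%, 0.391%, 0.260% and 0.372%.

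The spread within a genotype was wider than that of most genes. The highest embryo was a median of 1.29 times the lowest among WT (1.15 over all genes tested) and 1.62 times among mutants (1.33 over all genes). In WT the widest was Hmgcs1 (1.74), then Idi1 (1.46), Lss (1.44) and Hsd17b7 (1.43). In mutants the widest was Insig1 (2.29), then Lss (2.20), Tm7sf2 (2.16) and Msmo1 (2.08). Ebp, Npc1, Scap, Srebf1 and Pmvk were narrow in WT, at 1.05, 1.07, 1.11, 1.12 and 1.13, all below the median of all genes. Among mutants, Ebp (1.202) and Npc1 (1.21) were again below the median of all genes, while Scap (1.36) was slightly above it.

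**Figure D2:**
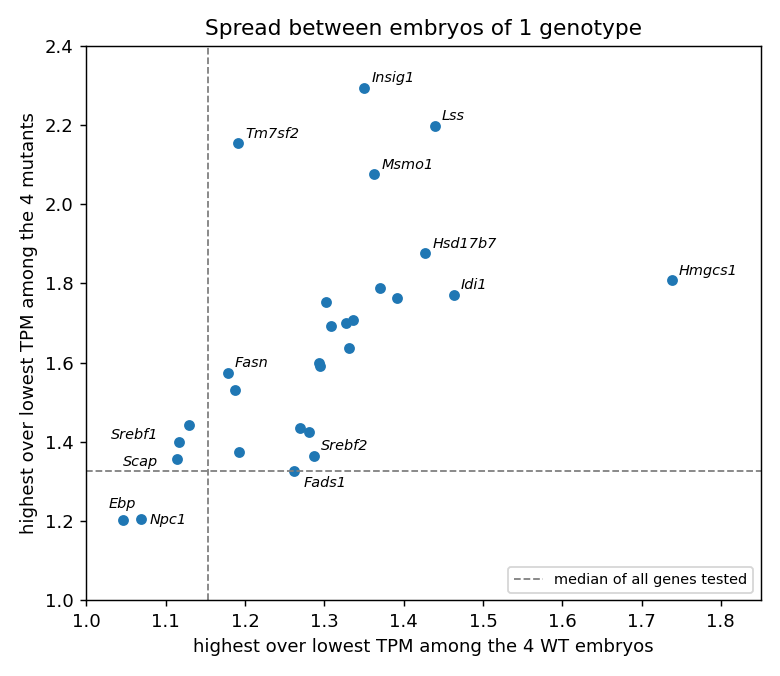
Each point is 1 of the 28 genes, with the ratio of the highest to the lowest TPM among the 4 WT embryos on the x axis and among the 4 mutants on the y axis; dashed lines are the medians of all genes tested. Most points lie above and to the right of both lines (1.15 and 1.33), with Hmgcs1 far right at 1.74, Insig1 at the top at 2.29, and Ebp and Npc1 at the lower left.

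Setting the genotypes side by side addressed how these transcripts differed when Smoothened, a protein that sterols bind, carried the substitution. By limma on log2(TPM + 1), adjusted over all genes tested, 0 of the 28 genes passed an adjusted p under 0.05 (0.0% of all genes), and limma voom on recovered reads also called 0. The log2 fold change was above 0 for 25 of the 28 genes, against 37.7% of all genes tested. Exceptions were Tm7sf2, Srebf1 and Fads1, at -0.03, -0.02 and -0.03, and with median-ratio scaling of the libraries all 28 were above 0 (50.5% of all genes), these 3 included at 0.02, 0.03 and 0.03. The median log2 fold change of the 28 genes was 0.18, beside -0.05 over all genes, and ran from 0.09 without mutant 2 and 0.10 without WT 1 to 0.30 without mutant 3. With array weights the median was 0.07 and 22 of the 28 genes were above 0. Before adjustment, 2 genes had a p under 0.05, Scd2 and Npc1, both higher in mutants (5.55% of all genes in that direction, 13.5% in either), and 0 were lower in mutants at that level (8.0%). Embryos of the 2 groups did not overlap for 1 gene, Npc1, higher in mutants (3.63%), and for 0 lower in mutants (3.82%).

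**Figure D3:**
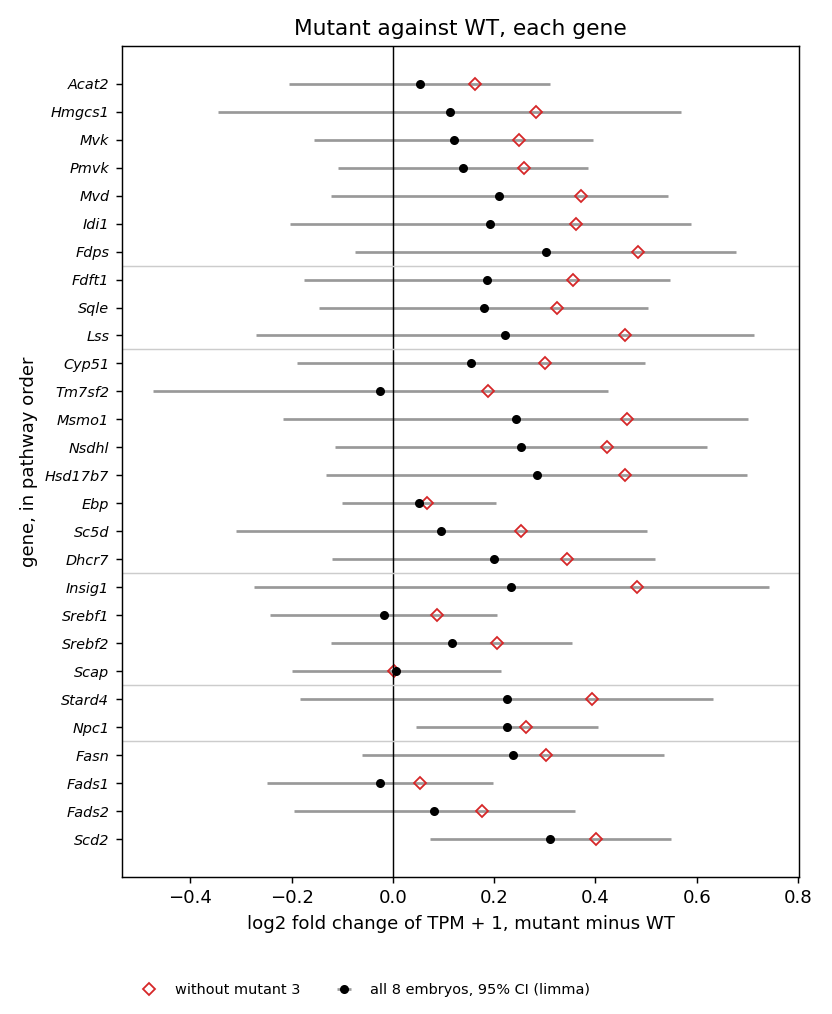
Points are log2 fold changes of TPM + 1, mutant minus WT, for the 28 genes in pathway order, with 95% confidence intervals from limma (bars); open diamonds are the values without mutant 3. The intervals of all genes but Scd2 and Npc1 cross 0, and without mutant 3 every gene but Scap lies further to the right.

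Much of the overlap between the groups came with 1 embryo. Mutant 3 was the lowest mutant for 25 of the 28 genes, so leaving it out must raise the mutant mean of those genes. The genes also moved together between embryos, so the counts below are not separate observations. Without mutant 3, 18 of the 28 genes had a p under 0.05 before adjustment, all higher in mutants, against 6.78% of all genes tested in that direction, and 0 of the 28 passed after adjustment (smallest adjusted p = 0.277 by limma). Mutants 1, 2 and 4 lay above all 4 WT embryos for 15 of the 28 genes (6.60% of all genes) and below them for 0 (4.24%). Without mutants 3 and 4, 19 of the 28 had an unadjusted p under 0.05 and were higher (9.93% of all genes), and 0 of the 28 were called after adjustment (0.0221% of all genes). Removing any other embryo left 1 to 3 genes at an unadjusted p under 0.05. Mutant 3 was also the embryo with the lowest mt-Nd6 and Gli1, and the part of these in the result was not tested.

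In the mevalonate and isoprenoid steps all 7 genes had a log2 fold change above 0, with a median of 0.14, and 0 passed the test. Hmgcs1 (chromosome 13, 119690379 to 119708260, build GRCm38), whose promoter window with the SRE letters is printed above, was at 187, 325, 251 and 287 TPM in the WT embryos 1 to 4 and at 316, 353, 195 and 276 TPM in the mutant embryos 1 to 4. WT 1 and mutant 3 were low, the other 6 embryos of both genotypes were mixed, and mutant minus WT was 0.11 ± 0.20 on the log2 scale (SE; limma adjusted p = 0.807). Acat2, which condenses acetyl-CoA, was the flattest of the 7 between genotypes, at 239 ± 24.9 TPM in the WT group (SD, n = 4) and 249 ± 37.2 TPM in the mutant group.

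Mvk, Pmvk and Mvd carry mevalonate to isopentenyl diphosphate. Mvk ranged from 45.9 to 54.5 TPM in WT and from 41.2 to 63.0 TPM in mutants, and Pmvk from 51.1 to 57.7 TPM and from 46.6 to 67.2 TPM. Mvd (chromosome 8, 122433601 to 122443422) was at 64.4, 83.3, 71.5 and 75.3 TPM in WT and at 96.4, 93.0, 60.3 and 96.1 TPM in mutants. For Mvd the mutants split into 3 embryos above every WT and mutant 3 below every WT. Its difference on the log2 scale was 0.21 ± 0.15 (SE; limma adjusted p = 0.509). Leaving out 1 embryo at a time gave 0.15 (without WT 1) to 0.37 (without mutant 3).

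Idi1, which isomerises isopentenyl diphosphate, was at 137, 201, 189 and 186 TPM in WT and at 209, 250, 141 and 223 TPM in mutants. Fdps (chromosome 3, 89093588 to 89101959), which makes farnesyl diphosphate, was at 90.1, 117, 105 and 114 TPM in WT and at 140, 151, 89.2 and 156 TPM in mutants. Both repeat the split seen for Mvd, except that mutant 3 stayed just above WT 1 for Idi1. Fdps had the largest log2 fold change of the sterol enzymes, 0.30 ± 0.17 (SE; limma adjusted p = 0.430; exact permutation p = 0.171), with a 95% confidence interval from -0.07 to 0.68. Leaving out 1 embryo at a time gave 0.22 (without mutant 4) to 0.48 (without mutant 3). Exon bases of Fdps are shared with the protein-coding Gm43738 on the same strand. The smallest p that exact permutation of 4 embryos against 4 allows is 0.0286.

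From squalene to lanosterol, 3 genes were followed, all with a log2 fold change above 0 and 0 past the test. Sqle, the squalene epoxidase and a flux-controlling step, was at 60.8, 80.9, 74.7 and 75.9 TPM in WT and at 87.2, 99.7, 60.9 and 87.2 TPM in mutants. Lss (chromosome 10, 76531588 to 76557138), which closes the ring to lanosterol, was at 16.9, 24.3, 21.3 and 23.1 TPM in WT and at 28, 32.5, 14.8 and 28.3 TPM in mutants. In both genes mutants 1, 2 and 4 exceeded all WT, while mutant 3 was beside or below WT 1. Fdft1, the squalene synthase, was at 73.8 ± 8.80 TPM in the WT group (SD, n = 4) and 85.4 ± 18.9 TPM in the mutant group. Exon bases of Fdft1 are shared with Ctsb on the other strand and strand of counting is not given, so reads there cannot be told apart.

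Of the 8 genes from lanosterol to cholesterol, 7 had a log2 fold change above 0 and 0 passed the test. Msmo1, which removes methyl groups from the sterol ring, was at 39.1, 53.3, 49.1 and 53.1 TPM in WT and at 67.5, 74.8, 36.0 and 59.4 TPM in mutants. Hsd17b7, a ketosteroid reductase of the same steps, was at 14.3, 20.4, 18.4 and 18.8 TPM in WT and at 26.2, 28.1, 15.0 and 20.9 TPM in mutants. Mutants 1 and 2 stood well above WT for both genes, mutant 4 just above, and mutant 3 near or below WT 1. Hsd17b7 had a log2 fold change of 0.28 ± 0.19 (SE; limma adjusted p = 0.479). Leaving out 1 embryo at a time gave 0.17 (without mutant 2) to 0.46 (without mutant 3).

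Cyp51, the lanosterol demethylase, ranged from 84.7 to 113 TPM in WT and from 82.9 to 141 TPM in mutants. Sc5d, the sterol desaturase before the last reduction, ranged from 24.6 to 34.2 TPM in WT and from 23.2 to 40.9 TPM in mutants. Mutant 4 fell inside the WT range for Sc5d (29.3 TPM) and stood just above the highest WT for Cyp51 (112.7 TPM, beside 112.5 TPM in WT 2). Dhcr7 (chromosome 7, 143823145 to 143848410), which makes cholesterol from 7-dehydrocholesterol, was at 32.5, 42.0, 37.2 and 40.5 TPM in WT and at 45.1, 51.0, 32.0 and 49.0 TPM in mutants. For Dhcr7 too, mutants 1, 2 and 4 were above all WT and mutant 3 was below them, with a log2 fold change of 0.20 ± 0.14 (SE; limma adjusted p = 0.515).

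Nsdhl and Ebp lie on the X chromosome and differed in pattern. Nsdhl (72918557 to 72958514), a sterol dehydrogenase, was at 42.7, 57.1, 52.7 and 55.9 TPM in WT and at 64.2, 73.7, 43.1 and 71.7 TPM in mutants, as the other enzymes were. Ebp (8185329 to 8193512), the sterol isomerase, was at 25.8, 25.3, 25.8 and 24.7 TPM in WT and at 24.3, 26.7, 25.5 and 29.2 TPM in mutants. Ebp was flat: WT 1 was its highest WT, and mutant 3 lay within the WT range. WT 1, WT 3, mutant 2 and mutant 4 had Xist, at 22.4 to 91.9 TPM, and the other embryos the Y-linked Ddx3y, so each genotype held 2 females and 2 males. With Xist as a covariate the log2 fold changes were 0.26 for Nsdhl and 0.05 for Ebp, beside 0.25 and 0.05 without it.

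Tm7sf2, a sterol reductase whose step the lamin B receptor can also carry out, had a log2 fold change of -0.03 ± 0.20 (SE; limma adjusted p = 0.962). It was at 9.31, 11.1, 9.91 and 10.9 TPM in WT and at 13.2, 12.7, 6.12 and 9.89 TPM in mutants. Mutants 1 and 2 were above all WT and mutant 3 was well below them, so the mean difference near 0 joins opposite deviations. Leaving out 1 embryo at a time gave log2 fold changes from -0.14 (without mutant 1) to 0.19 (without mutant 3). Exon bases of Tm7sf2 are shared with Vps51 on the same strand, and those of Cyp51 with Akap9 on the other.

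Among the sensors, Insig1, which retains SCAP when sterol is high and is itself an SREBP target, followed the enzymes and exceeded them in range among mutants. It was at 64.2, 86.7, 78.4 and 84.6 TPM in WT and at 111, 125, 54.3 and 94.6 TPM in mutants. Mutants 1, 2 and 4 were above all WT and mutant 3 was the lowest of the 8. Its difference on the log2 scale was 0.23 ± 0.23 (SE; limma adjusted p = 0.629), with an interval from -0.27 to 0.74. Leaving out 1 embryo at a time gave 0.09 (without mutant 2) to 0.48 (without mutant 3).

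The SREBP genes spanned a narrower range among mutants than the median of the 28 genes, with a highest over lowest of 1.37 for Srebf2 and 1.40 for Srebf1, beside 1.62. Srebf2, which encodes the SREBP of sterol genes, was at 102, 131, 120 and 121 TPM in WT and at 126, 139, 106 and 145 TPM in mutants, with WT 1 and mutant 3 again lowest. Srebf1, which encodes the SREBP of fatty acid genes, was at 46.3, 45.5, 43.2 and 41.4 TPM in WT and at 46.1, 48.5, 34.7 and 46.1 TPM in mutants. For Srebf1, WT 1 was the highest WT, as for Ebp but for no other gene of the 28, while mutant 3 was still lowest. Scap was at 31.2, 34.3, 31.4 and 30.8 TPM in WT and at 26.6, 34.03, 32.3 and 36.1 TPM in mutants; the log2 fold change was 0.01, with an interval from -0.20 to 0.21. Scap in mutant 3 was inside the WT range, and mutant 1 was the lowest embryo. Exon bases of Srebf1 are shared with Rai1 on the other strand.

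Stard4 and Npc1 move cholesterol inside the cell. Stard4, a soluble carrier, was at 24.3, 33.2, 31.1 and 33.2 TPM in WT and at 44.2, 43.9, 24.7 and 32.9 TPM in mutants. Stard4 was high in mutants 1 and 2, while mutant 4 was inside the WT range. Npc1, which exports cholesterol from lysosomes, was at 10.5, 11.1, 11.1 and 10.4 TPM in WT and at 14.1, 12.4, 11.7 and 12.9 TPM in mutants. It was the one gene of the 28 whose groups did not overlap, since mutant 3 was also above every WT. Its log2 fold change was 0.23 ± 0.08 (SE), with an interval from 0.05 to 0.41 (limma adjusted p = 0.317; exact permutation p = 0.0286), so it did not pass.

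Of the 4 fatty acid genes, only Scd2 was above all WT embryos in mutant 1. Scd2 (chromosome 19, 44293674 to 44306864) was at 625, 746, 673 and 715 TPM in WT and at 798, 966, 709 and 975 TPM in mutants. It had the largest log2 fold change of the 28 genes, 0.31 ± 0.11 (SE), with an interval from 0.07 to 0.55 (limma adjusted p = 0.312; exact permutation p = 0.0857), and mutant 3 was inside the WT range. Fasn (chromosome 11, 120805846 to 120824547), the fatty acid synthase, was at 169, 176, 184 and 156 TPM in WT and at 162, 227, 176 and 255 TPM in mutants. Fasn was high in mutants 2 and 4 only, and its lowest mutant was mutant 1. Its difference on the log2 scale was 0.24 ± 0.13 (SE; limma adjusted p = 0.432).

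Fads1 and Fads2, desaturases of long polyunsaturated fatty acids, are neighbours on chromosome 19 (10182888 to 10196877 and 10062765 to 10101746). Fads1 was at 96.5, 122, 105 and 117 TPM in WT and at 105, 121, 91.4 and 115 TPM in mutants. Fads2 was at 197, 252, 210 and 227 TPM in WT and at 210, 269, 192 and 273 TPM in mutants. Both kept WT 1 and mutant 3 as the lowest embryo of their genotype, and the groups overlapped throughout. Log2 fold changes were -0.03 ± 0.10 for Fads1 and 0.08 ± 0.12 for Fads2 (SE; limma adjusted p = 0.922 and 0.766).

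Averaged by role, WT 1 and mutant 3 were the lowest 2 embryos for the sterol enzymes and for the fatty acid genes, while the order of the others differed. Means of log2(TPM + 1) over the 18 enzymes from mevalonate to cholesterol, set against the WT mean, were -0.23, 0.15, 0.00 and 0.08 in the WT embryos 1 to 4 and 0.31, 0.40, -0.31 and 0.26 in the mutant embryos 1 to 4. For the 4 fatty acid genes they were -0.13, 0.12, -0.02 and 0.02 in WT and 0.00, 0.33, -0.09 and 0.36 in mutants. Mutant 1 thus stood high for the sterol enzymes and at the WT mean for these 4 fatty acid genes. The list of other fatty acid genes, taken up below, did not repeat this. Its means, set against WT without the expression filter, were 0.165, 0.188, -0.045 and 0.090 in the mutant embryos 1 to 4. Over all 28 genes the mean came to 6.04 ± 0.14 for WT embryos (SD, n = 4) and 6.20 ± 0.28 for mutants. That difference of 0.16 is smaller than the SD among mutants, and was 0.29 without mutant 3, 0.09 without WT 1 and 0.08 without mutant 2.

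**Figure D4:**
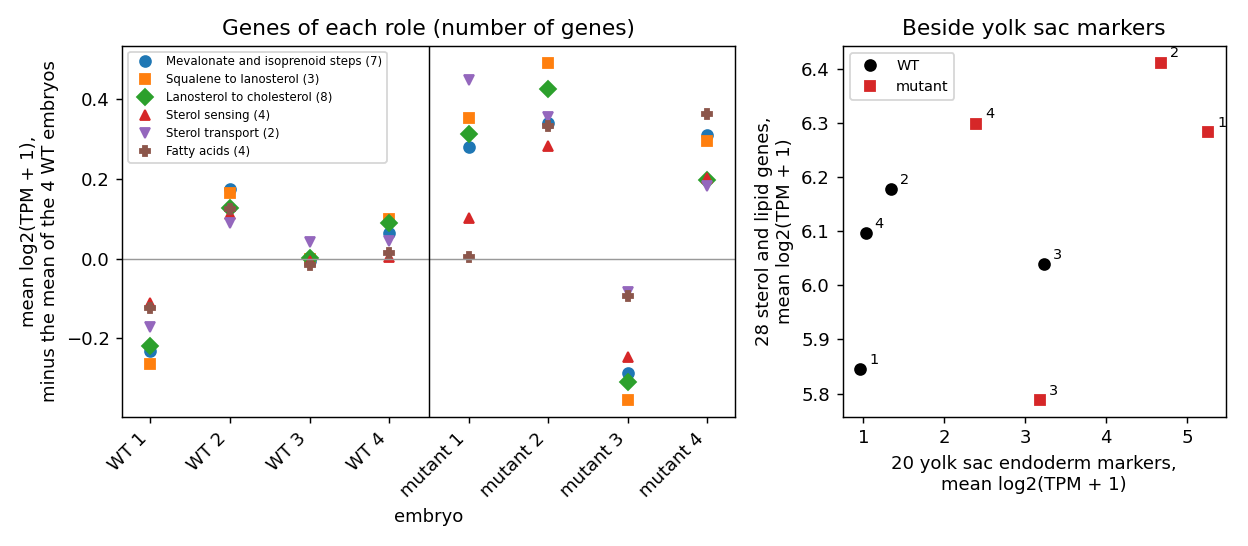
Left, the mean log2(TPM + 1) of the genes of each role in each embryo, minus the mean of the 4 WT embryos; right, the mean over all 28 genes against the mean over 20 yolk sac endoderm markers, with replicate numbers beside the points. All 6 roles are low in WT 1 and mutant 3, fatty acid genes alone sit at 0 in mutant 1, and mutants 1 and 2 are high on both axes of the right panel.

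Markers of other tissues were not even across the embryos. In bulk embryos fewer cells of a type and less RNA per cell cannot be told apart. The mean over 20 yolk sac endoderm markers, none at 0 in all embryos, was 0.96, 1.35, 3.23 and 1.03 in the WT embryos 1 to 4 and 5.26, 4.68, 3.18 and 2.39 in the mutant embryos 1 to 4, and they summed to 27.1 to 298 TPM in WT and 165 to 1545 TPM in mutants. Of 19 tested, 19 were higher in mutants, each at an unadjusted p under 0.05 (5.55% of all genes in that direction) and 0 after adjustment. With that mean as a covariate, 16 of the 28 lipid genes had a log2 fold change above 0, and their median was 0.01. The share of all genes above 0 in that fit was not counted. There 0 of the 28 had an unadjusted p under 0.05, against 2522 of all 13596 genes tested. Log2 fold changes in that fit were 0.34 for Scd2, 0.14 for Npc1, -0.09 for Insig1 and -0.14 for Hmgcs1. The covariate itself differed by genotype, at 1.64 ± 1.07 in WT and 3.88 ± 1.32 in mutants (SD, n = 4). The fit therefore cannot separate yolk sac score from genotype, and no cause was tested. Mutant 3 and WT 3 had nearly equal yolk sac values, and their means over the 28 genes were 5.79 and 6.04.

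Other tissues were read from 5 further marker lists. The mean over 10 red cell markers was lowest in WT 1 (6.97) and highest in mutant 3 (8.92), the embryos in which lipid genes were both low. The 9 markers of neural tube and neurons were all lower in mutants, 5 at an unadjusted p under 0.05 (8.0% of all genes in that direction). They summed to 391 to 581 TPM in WT and 247 to 441 TPM in mutants. Of 8 heart muscle markers 7 were higher in mutants (37.7% of all genes), 5 of them at an unadjusted p under 0.05 (5.55%). Groups did not overlap for 4 (3.63%), and the 8 summed to 1282 to 1867 TPM in WT and 1924 to 3920 TPM in mutants. Their means of log2(TPM + 1) did overlap, at 6.49 to 7.03 in WT and 6.90 to 7.98 in mutants. Trophoblast and decidua markers summed to 14.2 to 37.4 TPM and 27.4 to 353 TPM, and 7 macrophage markers to 3.85 to 5.89 TPM and 1.2 to 4.83 TPM. The part of these tissues in the result was not tested.

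Other genes of lipid metabolism were compared as lists, and 0 genes of any list passed after adjustment. Among 11 tested enzymes of sterol and isoprenoid synthesis outside the set, 5 had a log2 fold change above 0, the median was -0.01, and 1, Nus1, had an unadjusted p under 0.05. Among 10 genes that handle SREBP, such as Erlin2 and Rnf139, 5 were above 0, the median was -0.002, and 0 had an unadjusted p under 0.05.

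Sterol export and uptake were covered by 2 lists. Of 10 genes of LXR and sterol export, 5 were above 0 and 4 had an unadjusted p under 0.05, all higher in mutants, against 5.55% of all genes in that direction. Lpcat3, a lysophospholipid acyltransferase and LXR target, was at 28.4, 29.6, 30.1 and 26.3 TPM in WT and at 39.6, 36.5, 30.5 and 42.4 TPM in mutants, without overlap (log2 fold change 0.36 ± 0.10, SE; limma adjusted p = 0.281). Soat2, which esterifies cholesterol in liver and gut, was at 0.72, 1.10, 2.86 and 0.88 TPM in WT and at 8.54, 5.37, 2.27 and 2.18 TPM in mutants, the order of the yolk sac markers in mutants. Of 17 uptake and transport genes 13 were above 0 (37.7% of all genes) with a median of 0.13, and 2, Lrp1 (31.5 ± 2.22 and 37.1 ± 2.38 TPM, SD, n = 4) and Lrp2 (13.2 ± 2.54 and 17.3 ± 2.06 TPM), had an unadjusted p under 0.05, both higher in mutants.

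Of 23 other fatty acid genes 19 were above 0 (37.7% of all genes), with a median of 0.11. Elovl1, which elongates saturated and monounsaturated very long chains, was at 24.3, 28.4, 26.2 and 27.1 TPM in WT and at 45.7, 34.8, 31.6 and 33.8 TPM in mutants, without overlap (log2 fold change 0.44 ± 0.11, SE; limma adjusted p = 0.281). Of 19 genes of phospholipid and triglyceride synthesis 10 were above 0 with a median of 0.00, and Ptdss1, a phosphatidylserine synthase, was at 35.3 ± 1.10 and 40.02 ± 1.65 TPM (SD, n = 4) without overlap. Nus1, Lpcat3, Lrp1, Elovl1 and Ptdss1 thus kept mutant 3 above all WT, as Npc1 did. Counting genes not named, groups did not overlap for 3 of the 17 uptake genes and 2 of the 23 fatty acid genes, all higher in mutants, against 3.63% of all genes in that direction.

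Some oxysterols bind Smoothened, and 9 enzymes of their metabolism summed to 78.2 to 89.2 TPM in WT and 71.7 to 103 TPM in mutants. Of 7 tested 2 were above 0, against 37.7% of all genes, with a median of -0.14. Cyp27a1, the sterol 27-hydroxylase, was at 4.41, 3.92, 2.49 and 5.26 TPM in WT and at 2.32, 3.21, 1.18 and 0.68 TPM in mutants (log2 fold change -0.88 ± 0.29, SE; limma adjusted p = 0.304). It was lowest in mutants 3 and 4, and its log2 fold change was -0.39 without both. Cyp46a1, the neuronal cholesterol 24-hydroxylase, was at 2.06, 2.97, 1.03 and 2.07 TPM in WT and at 0.78, 1.57, 0.98 and 0.40 TPM in mutants (log2 fold change -0.65 ± 0.23; limma adjusted p = 0.317), and -0.46 without mutants 3 and 4. Cyp11a1, which cleaves the cholesterol side chain, was at 0.42, 0.35, 1.40 and 0.26 TPM in WT and at 1.10, 3.64, 2.47 and 0.25 TPM in mutants, with groups that overlapped (log2 fold change 0.72 ± 0.38, SE; limma adjusted p = 0.417).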

How the data were processed

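The authors deposited TPM values by gene symbol in 1 table with a column for each of the 8 embryos, per the file headers; build GRCm38 (mm10) comes from the submitters' processing notes, while the sources used here name no aligner, counter, annotation or strand setting. Per the labels' protocols, library preparation used a TruSeq kit and sequencing a NovaSeq instrument. All 8 columns matched a sample by name. The genes and lists were chosen with earlier results of these data known.

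Genes with at least 1 TPM in at least 4 embryos were fitted on log2(TPM + 1) with limma 3.58.1 (R 4.3.3), genotype as the only term, a trend in the empirical Bayes step, two-sided, with Benjamini-Hochberg adjustment over 13596 genes and a threshold of 0.05. Fold changes on TPM + 1 understate those of low genes. Limma p-values set the difference between genotypes against the spread between single embryos, moderated over all genes fitted. The labels give no litter, so spread between litters is not covered. Fold changes of single genes were also tested by exact permutation, two-sided. All 28 genes were named; from other lists, up to 3 genes with the smallest p qualified, and those the text turns on are given.

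Whole reads were recovered from TPM and GENCODE M21 merged exon lengths: 97.69% of 22992 genes were whole within 0.02 reads in all 8 libraries. This and voom were added after seeing the data. The fit was tested on simulated data. Same-numbered embryos do not share a stated litter, so the replicate number pairs nothing in the design. The rule for printed promoters, those with the SRE letters, gave Hmgcs1. Alternatives were another pseudocount, filter, scaling, no trend, array weights, Xist or the yolk sac score as a covariate, the replicate block, and leaving out embryos. Protein comparisons planned for some genes were not run.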

Additional observations from a re-analysis of the deposited data

Results flagged for a closer look

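Each of the 28 genes and their mean was checked for a lone embryo in each genotype, 58 groups of 4 in all, of which chance alone is expected to mark about 1 in 20. In 1 group an embryo stood apart: Mvd in mutants, where mutant 3 was at 60.3 TPM and the others at 93.0 to 96.4 TPM, so that the gap took up 0.906 of the whole range, above Dixon's 95% critical value for groups of 4.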

How the results depend on the processing

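Adjusted calls among the 28 genes stayed at 0 under every alternative run, and 39 of 503 fold changes changed sign, in 14 genes; the cause was not tested. Log2 fold changes turned above 0 with median-ratio scaling for Tm7sf2 (0.019), Srebf1 (0.031) and Fads1 (0.025), and below 0 with array weights for Acat2 (-0.010), Hmgcs1 (-0.048) and Sc5d (-0.077). With yolk sac markers as covariate they turned below 0 for Hmgcs1 (-0.136), Idi1 (-0.004), Fdft1 (-0.013), Cyp51 (-0.037), Msmo1 (-0.045), Hsd17b7 (-0.036), Sc5d (-0.243), Insig1 (-0.091) and Stard4 (-0.117), and 16 genes were above 0. In that fit 0 of the 28 had an unadjusted p under 0.05, against 2522 of all 13596 genes tested. The yolk sac score itself differed by genotype, so that fit cannot separate it from genotype. Leaving out 1 embryo at a time gave ranges across 0 for Acat2 (-0.011 to 0.162), Hmgcs1 (-0.040 to 0.282), Sc5d (-0.011 to 0.253), Srebf1 (-0.070 to 0.087), Scap (-0.049 to 0.093), Tm7sf2 (-0.144 to 0.188) and Fads1 (-0.085 to 0.053). Genes of the 28 at an unadjusted p under 0.05 then numbered 1 to 18, all genes tested at that level 1158 to 3094 (1842 with all embryos, 3511 with array weights), and adjusted calls over all genes 0 to 1, the 1 without mutant 2. Without mutants 3 and 4, 3 genes of the whole table were called, 19 of the 28 had an unadjusted p under 0.05, and Tm7sf2 (0.308), Srebf1 (0.099), Fads1 (0.046) and Scap (-0.082) changed sign.

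Same-numbered embryos did not deviate together (correlations of -0.062, 0.04, -0.194 and -0.245). With the replicate number as a block, 1 of the 28 genes had an unadjusted p under 0.05 instead of 2, and 0 were called. Limma voom on recovered reads, chosen after seeing the data, called 0 genes, with 2046 at an unadjusted p under 0.05. Depth is not known for Fdft1, whose values did not give whole reads.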
